A study of Mus musculus with 18 samples.

Results

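Skp2, its partners in a ubiquitin ligase, and the cell cycle brakes around them were read in FVB/N mouse embryonic stem (ES) cells. The set held 10 genes, Skp2, Skp1a, Cks1b, Cul1, Cdkn1a, Cdkn1b, Cdkn2a, Rb1, Rbl1 and E2f1. They were covered by 17 probe sets of the 36701 tested, and by 10 of the 15964 genes with a probe set of their own. Each probe set, a cluster of short oligonucleotides designed for 1 transcript, was taken if the annotation of the chip gave a member as its only gene. Of the 17, 13 lay on the chip U74Av2, 2 on U74Bv2 and 2 on U74Cv2. Skp2 was chosen because its signal was lower in STAT3-MER cells on these same arrays, so its values are a description and were not tested.

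The 2 groups were 3 dishes of an ES cell line of the transgenic line Tg743 and 3 dishes of a WT FVB/N ES cell line, each hybridized to the 3 chips, which gave 18 arrays. The Tg743 cells carried STAT3-MER, a fusion of STAT3 with a modified hormone-binding domain of the estrogen receptor under a chicken β-actin promoter, and grew with 4-hydroxytamoxifen (OHT) and without LIF. The WT cells carried no transgene and grew with LIF. Genotype, OHT and LIF therefore changed together and cannot be told apart, and all dishes of a group came from the same line, so that p-values measure the spread between dishes. ES cells of this study were kept on embryonic fibroblasts, and RNA was amplified in 2 rounds before labelling.

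Skp2 is the F-box protein of the SCF-Skp2 ubiquitin ligase, in which Skp1 links it to the scaffold Cul1 and the small protein Cks1b helps it to hold phosphorylated p27. The ligase marks p27 (Cdkn1b) for degradation, and p27 and p21 (Cdkn1a) are inhibitors of the cyclin-dependent kinases (CDKs). These kinases phosphorylate the pocket proteins Rb1 and p107 (Rbl1), which otherwise hold E2F factors such as E2f1 in check. In ES cells the cycle is fast, CDK activity is high, and the pocket proteins are largely phosphorylated. Skp2 controls p27 as a protein, a step that RNA arrays do not read.

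The transgene was seen on 1 probe set. On 93945_at of Esr1, the estrogen receptor gene whose hormone-binding domain is part of the fusion, STAT3-MER dishes gave a signal of 27655 ± 3375 and WT dishes 23.1 ± 15.8 (SD, n = 3 each, limma, log2 fold change 9.01, adjusted p = 7.58e-06). It was the only probe set of all 36701 that passed, 0.00272% in either direction. The other 5 Esr1 probe sets did not pass, and neither did the 4 of Stat3, the other gene of the fusion, whose log2 fold changes were 0.12, 0.51, 0.19 and -0.24 (limma, adjusted p = 0.9995 each). All signals are linear MAS5 units, scaled by the authors to one level, with array medians between 132 and 157 on U74Av2, between 246 and 269.8 on U74Bv2, and between 191 and 231 on U74Cv2. No detection calls were used, so a mean under 200 is called dim here. All 11 ES cell markers listed had a mean above that limit, among them Pou5f1 (OCT-3/4), while 7 of 8 primitive endoderm and 6 of 6 trophectoderm markers were dim, and 0 markers passed in either direction.

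The gene Skp2 lies on chromosome 15 (9111982 to 9155425, GRCm38.p6). RefSeq gives it 2 start sites, and their windows from 250 bases before to 50 bases after the start are shown because STAT3 is the factor that was manipulated. Capitals mark a match to TTCNNNGAA, the STAT motif, which reads the same on both strands.
Skp2 upstream start, chr15:9155376-9155675, minus strand: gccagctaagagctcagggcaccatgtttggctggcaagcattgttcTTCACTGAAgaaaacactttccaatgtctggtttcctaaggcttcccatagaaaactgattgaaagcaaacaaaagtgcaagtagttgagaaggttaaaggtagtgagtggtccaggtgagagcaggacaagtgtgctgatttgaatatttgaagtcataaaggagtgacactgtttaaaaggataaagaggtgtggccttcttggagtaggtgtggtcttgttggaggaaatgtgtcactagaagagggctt
Skp2 inner start, chr15:9140405-9140704, minus strand: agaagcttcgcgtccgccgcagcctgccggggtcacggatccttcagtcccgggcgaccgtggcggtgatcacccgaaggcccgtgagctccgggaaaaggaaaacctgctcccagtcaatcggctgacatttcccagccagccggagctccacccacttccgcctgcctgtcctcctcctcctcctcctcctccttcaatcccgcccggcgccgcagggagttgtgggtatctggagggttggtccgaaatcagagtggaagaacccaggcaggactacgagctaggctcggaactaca
The window of the upstream start held TTCACTGAA at bases -203 to -195 from the start, and the window of the inner start had no match. The inner window was 63.7% G and C with 23 CpG dinucleotides, against 43.7% and 0 in the upstream window. Among all 32851 windows of this length, 8.3% held a match, so 1 of 14 windows of the members is near that share. A match is a description of the letters only, and these data do not say which start was used.

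On the probe set 167824_f_at of U74Cv2, Skp2 had signals of 4486, 3984 and 5232 in the STAT3-MER dishes and of 7770, 5297 and 7887 in the WT dishes (replicates 1, 2 and 3). All STAT3-MER dishes lay below all WT dishes, but the highest STAT3-MER dish and the WT replicate 2 nearly met. The means were 4568 ± 628 in STAT3-MER and 6985 ± 1463 in WT cells (SD, n = 3 each), a ratio of 0.654 and a log2 fold change of -0.60. Without WT replicate 2 the lowest WT dish stood at 7770 and the ratio was 0.583. With each other dish left out in turn, the ratio lay between 0.606 and 0.699. The suffix f of this probe set marks probes that match a family of similar transcripts, so other transcripts may add to its signal.

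The other Skp2 probe set, 163495_at on U74Bv2, gave 653, 372 and 653 in STAT3-MER dishes and 729, 558 and 487 in WT dishes. Here the groups overlapped, and the means of 559.5 ± 162 in STAT3-MER and 592 ± 124 in WT cells (SD, n = 3 each) gave a ratio of 0.946 and a log2 fold change of -0.10. The sign of this difference changed with the dish left out, with log2 fold changes between -0.23 and 0.15. The lower Skp2 signal thus stood on 1 of the 2 probe sets. The probe sets lie on different chips, so their levels cannot be set against each other.

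The partners of Skp2 in the ligase were read mainly from U74Av2. Skp1a, named Skp1 in current annotation, is the adaptor between the F-box protein and the cullin. It gave 3047, 2417 and 2504 in STAT3-MER dishes and 3052, 3263 and 3336 in WT dishes. Again every STAT3-MER dish lay below every WT dish, and STAT3-MER replicate 1 missed the lowest WT dish by little. The ratio was 0.826, and the log2 fold change of -0.28 (standard error, SE, 0.17) did not pass (limma, adjusted p = 0.9995, unadjusted p = 0.138). Skp1a and Skp2 167824_f_at were the 2 of 17 member probe sets whose groups did not overlap with STAT3-MER lower, where 3.63% of all probe sets did so, and of these Skp2 was chosen for it. With STAT3-MER higher there were 0 of 17, against 4.5% of all probe sets.

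Cks1b, the cofactor that p27 recognition requires, gave 3768, 2532 and 3069 in STAT3-MER dishes and 3255, 3973 and 4749 in WT dishes. STAT3-MER replicate 1 reached into the WT range. The means were 3123 ± 620 in STAT3-MER and 3992 ± 747 in WT cells (SD, n = 3 each), with a log2 fold change of -0.35 (SE 0.22) and a 95% interval from -0.86 to 0.15. The groups were apart without STAT3-MER replicate 1 or without WT replicate 1, and they overlapped without each of the other dishes. Cdkn1a 94881_at was likewise apart without STAT3-MER replicate 2. How often a dropped dish separates the groups over all probe sets was not counted, so nothing is read from this. The sign of Cks1b and of Skp1a stayed negative with every dish left out in turn.

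Cul1, the scaffold of the ligase, had 3 probe sets that did not give one direction. On 94002_at (U74Av2) it gave 1684, 1139 and 1458.5 in STAT3-MER dishes and 1388, 1759 and 1753 in WT dishes. On 164497_r_at (U74Bv2) the signals were 4088, 3227 and 4212 in STAT3-MER dishes and 4099.5, 4164 and 2709.7 in WT dishes. The groups overlapped on both, and the log2 fold changes were -0.20 (SE 0.21) and 0.09 (SE 0.24). The third, 167458_r_at on U74Cv2, was dim, with 222, 20.8 and 269.8 in STAT3-MER dishes and 91.9, 35.5 and 28.8 in WT dishes. Its 13.0-fold spread over the 6 arrays left an interval from -0.55 to 2.54 on the log2 scale. The suffix r marks probe sets made with relaxed design rules.

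**Figure D1:**
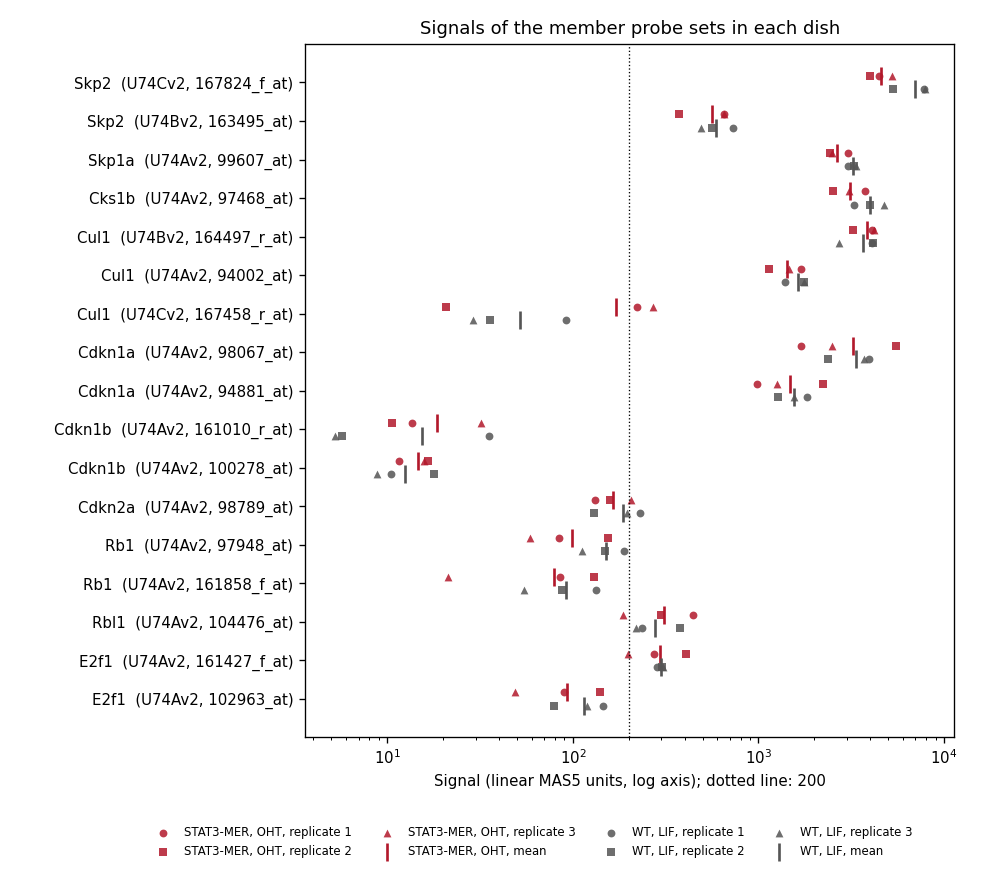
Signals of the 17 member probe sets (linear MAS5 units on a log axis), with 3 STAT3-MER dishes in red above 3 WT dishes in grey, replicates by symbol and group means as bars. Skp2 167824_f_at and Skp1a are the 2 rows whose groups do not overlap, and both Cdkn1b rows lie far left of the dotted line at 200.

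Cdkn1b encodes p27, the substrate whose level Skp2 controls, and lies on chromosome 6. Its probe set 100278_at gave 11.6, 16.5 and 15.9 in STAT3-MER dishes and 10.4, 17.9 and 8.81 in WT dishes. Its probe set 161010_r_at gave 13.6, 10.5 and 31.8 in STAT3-MER dishes and 35.5, 5.71 and 5.20 in WT dishes. All 12 values lay below 36, against array medians of 132 or more on that chip, so both probe sets were at the bottom of the measured range. Their signals had a Pearson r of -0.09 over the 6 arrays, and whether they detect p27 RNA was not tested. The groups overlapped on both probe sets, with log2 fold changes of 0.08 (SE 0.14) and 0.13 (SE 0.27). The pseudocount of 32 is larger than most of these signals and shrinks any difference between them, so the intervals from -0.26 to 0.41 and from -0.49 to 0.75 do not limit a change of p27 RNA. A difference in p27 RNA beside the lower Skp2 signal was thus not detectable here.

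Cdkn1a encodes p21, which p53 induces and which arrested fibroblasts also express, and lies on chromosome 17. On 98067_at it gave 1694, 5499 and 2494 in STAT3-MER dishes and 3945, 2382 and 3722 in WT dishes. On 94881_at it gave 984, 2223 and 1253 in STAT3-MER dishes and 1828, 1269.8 and 1554 in WT dishes. On both probe sets STAT3-MER replicate 2 was the highest dish and STAT3-MER replicate 1 the lowest, so that the STAT3-MER dishes enclosed the WT dishes. The group means were close, with ratios of 0.964 and 0.959 and log2 fold changes of -0.19 (SE 0.41) and -0.13 (SE 0.30). The 95% interval of 98067_at still allowed a fold between 0.454 and 1.68. The spread was 62.1% of the mean among STAT3-MER dishes and 25.2% among WT dishes on this probe set. Leaving out STAT3-MER replicate 2 moved the ratio on 98067_at to 0.625 and leaving out STAT3-MER replicate 1 moved it to 1.19, so single dishes set the direction.

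The order of the dishes on Cdkn1a was close to that of fibroblast markers. On the same U74Av2 arrays the summed signal of 12 fibroblast markers, such as the matrix genes Lum, Lox and Dcn, was 8258, 33142 and 22251 in STAT3-MER dishes and 28318, 13042 and 30969 in WT dishes. Dcn alone gave 1959, 8503 and 3128 in STAT3-MER dishes and 7382, 2646 and 7353 in WT dishes. The dish with the lowest and the dish with the highest Cdkn1a signal were thus also the dishes with the lowest and the highest fibroblast sum. Over the 6 arrays, 98067_at had a Pearson r of 0.892 with the mean log2 signal of these markers (exact permutation p = 0.0167) and a Spearman rho of 0.829 (exact permutation p = 0.0583). Within groups, after removing the group means, r was 0.891, and without the 2 dishes farthest from the median, STAT3-MER replicate 1 and WT replicate 2, it was 0.758. For 94881_at, r was 0.842 (exact permutation p = 0.0347) and rho 0.771 (exact permutation p = 0.103), and r without the same 2 dishes was 0.642. The relation was examined after the values were seen, as 1 of 26 between the 13 U74Av2 probe sets and 2 marker scores, and 0 of 26 passed after correction (two-sided exact permutation tests, adjusted p = 0.235 for r and 0.506 for rho on 98067_at, and 0.301 and 0.534 on 94881_at). More fibroblasts in a dish and more Cdkn1a RNA per cell cannot be told apart in these bulk samples.

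**Figure D2:**
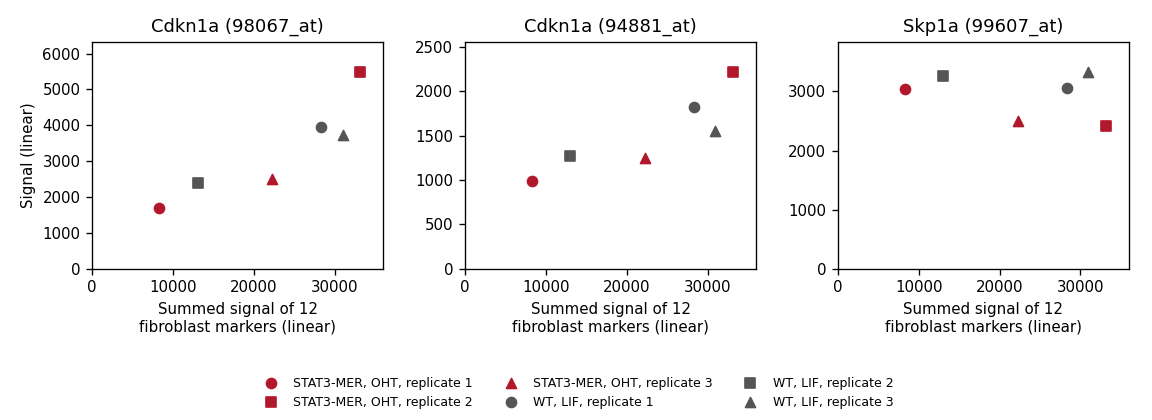
Signals of Cdkn1a on both probe sets and of Skp1a (y axes, linear units from 0) against the summed signal of 12 fibroblast markers on the same U74Av2 array (x axes, linear units), with 3 STAT3-MER dishes in red and 3 WT dishes in grey. On Cdkn1a 98067_at STAT3-MER replicate 1 lies lowest at 1694 beside a sum of 8258, and STAT3-MER replicate 2 highest at 5499 beside 33142.

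Skp1a did not have this order. Its r with the fibroblast score was -0.25 (two-sided exact permutation p = 0.671, adjusted p = 0.793) and its rho 0.14 (exact permutation p = 0.803, adjusted p = 0.949), while r was 0.547 without the same 2 dishes and -0.78 within groups. The fibroblast list had 12 of 13 genes measured. With 1 probe set per gene, 11 of them on U74Av2 and Prrx1 on U74Bv2, 2 were dim, 11 of 12 log2 fold changes were negative, Prrx1 stood at 0.02, and the median was -0.21. The U74Av2 sums used that chip's own Prrx1 probe set, and the part of fibroblasts in the other members' values was not tested. On U74Cv2, where Skp2 167824_f_at lies, 0 of the 13 were read, so the fibroblast content of those arrays has no value here.

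Cdkn2a, which encodes the CDK4 inhibitor p16Ink4a and the p53 activator p19Arf from a shared locus on chromosome 4, was dim. Its probe set 98789_at gave 132, 158 and 205 in STAT3-MER dishes and 230.4, 130.0 and 196 in WT dishes, near the array median. The groups overlapped, with a log2 fold change of -0.13 (SE 0.30). The table gives no split between the 2 products.

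Rb1, the retinoblastoma protein, was dim on both of its probe sets. It gave 84.5, 154 and 58.8 in STAT3-MER dishes and 189, 149 and 112 in WT dishes on 97948_at. On 161858_f_at it gave 85.3, 129.6 and 21.1 in STAT3-MER dishes and 134, 87.5 and 54.3 in WT dishes. Both lay around or below the array median, with overlapping groups. The log2 fold changes were -0.52 (SE 0.35) and -0.25 (SE 0.46), and the interval of 97948_at ran from -1.33 to 0.29.

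Rbl1, which encodes p107, had a mean above the dim limit. It gave 445, 299 and 186 in STAT3-MER dishes and 236, 378 and 219.5 in WT dishes, with a log2 fold change of 0.11 (SE 0.35). STAT3-MER dishes held both the highest and the lowest value. The window around its start on chromosome 2 is shown because p107 is itself a target of E2F, with capitals at the match to an E2F motif.
Rbl1, chr2:157204485-157204784, minus strand: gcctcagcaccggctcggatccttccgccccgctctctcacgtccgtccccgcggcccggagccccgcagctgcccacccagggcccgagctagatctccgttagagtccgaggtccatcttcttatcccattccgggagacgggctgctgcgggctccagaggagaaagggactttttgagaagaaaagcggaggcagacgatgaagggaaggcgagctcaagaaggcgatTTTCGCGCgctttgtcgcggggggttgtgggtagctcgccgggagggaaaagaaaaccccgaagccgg
The E2F motif was searched as TTTCCCGC, TTTCGCGC, TTTGCCGC and TTTGGCGC on both strands, and TTTCGCGC lay at bases -18 to -11 from the start. The only other match among the 14 windows of 9 members was TTTCCCGC at -99 to -92 of a Cdkn2a start, and 2.26% of all windows held a match. The E2f1 window (154569377 to 154569676) had no match, but it lies wholly inside the gene (154559400 to 154569892). The bases upstream of the gene were thus not searched.

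E2f1, the activating E2F factor that the pocket proteins hold, gave 275, 408 and 199 in STAT3-MER dishes and 284, 302 and 307 in WT dishes on 161427_f_at. Its dim probe set 102963_at gave 89.8, 139 and 48.7 in STAT3-MER dishes and 145, 79.0 and 119 in WT dishes. On 161427_f_at the SD was 4.16% of the mean among WT dishes and 35.9% among STAT3-MER dishes, which lay on either side of the WT dishes. The log2 fold changes were -0.07 (SE 0.28) and -0.27 (SE 0.36). The dim probe set had the lowest raw p of the relations with ES cell markers, r of -0.93 and rho of -0.89 (two-sided exact permutation p = 0.0181 and 0.0333), which did not pass over the 26 relations (exact permutation, adjusted p = 0.235 and 0.506). With the summed ES marker signal in place of the mean log2, its r was -0.20.

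Counted over the 15 member probe sets other than those of Skp2, 10 log2 fold changes were negative and 5 positive, with a median of -0.13, where 48.8% of all probe sets were negative and the median was 0.01. In limma 0 of 15 passed in either direction, against 0.00272% of all probe sets higher and 0% lower. At an unadjusted p under 0.05 there were 0 of the 15, against 3.45% of all probe sets, and the lowest of the 15 was the 0.138 of Skp1a. The filter of the methods is a fold over 1.5, a difference over 100 and a p under 0.1. It was applied here to MAS5 signals, not to the dChip values of the study. Skp2 167824_f_at, which was chosen on this contrast, was the only member to meet it. Of all probe sets, 0.872% met it in that direction and 1.1% in the other. Among the 8 other probe sets with a mean of at least 200, the ratio of means STAT3-MER over WT lay between 0.782 for Cks1b and 1.12 for Rbl1. The remaining 7 were dim, those of Cdkn1b, Cdkn2a and Rb1 and 1 each of Cul1 and E2f1. Among the brakes within the 10 members, p21 and p107 alone were thus not dim.

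**Figure D3:**
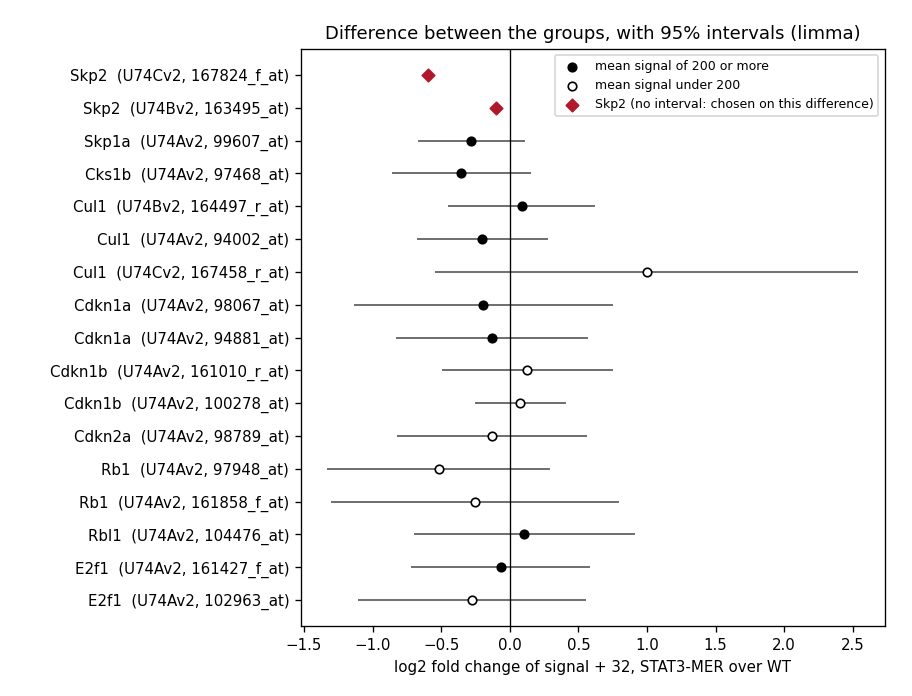
Log2 fold change of signal + 32, STAT3-MER over WT (x axis), of the 17 member probe sets with 95% intervals from limma, filled points for means of at least 200 and open points for dim ones. Skp2 (red) is drawn without an interval because it was chosen on this difference, and the intervals of all 15 others cross 0.

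Further genes of the pathway were taken from 7 lists, of which 69 of 76 genes were measured and 6 were dim. None passed in limma, with 0 higher and 0 lower, and 3 of 69 had an unadjusted p under 0.05, against 2.93% of all genes. In 4 genes every STAT3-MER dish lay above every WT dish, and in 2 below, where 4.02% and 3.5% of all genes did so. The median log2 fold change over the 69 was -0.04, against 0.00 over all genes. With single dishes left out, the medians of 6 of the 7 lists fell on both sides of 0, all but that of the CDK inhibitors, so no direction is read from them. All genes named next failed the test (limma, adjusted p = 0.9995), and they are those with the smallest p of each list.

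On the side of the ligases, 13 genes had a median of -0.04, which lay between -0.18 and 0.17 with single dishes left out and was 0.09 when the probe sets of each gene were averaged. Cdc34, an E2 enzyme that works with SCF ligases, gave 1729, 1742 and 1467 in STAT3-MER dishes and 1169.9, 1029 and 1092 in WT dishes. Its groups were apart, with a log2 fold change of 0.57 (SE 0.17), while the mean over its 2 probe sets was 0.09. Nedd8, the modifier that activates cullins, was apart the other way, with 1121, 956 and 1102 in STAT3-MER dishes and 1196, 1375 and 1578 in WT dishes (log2 fold change -0.37, SE 0.18, and -0.39 over its 2 probe sets). Cks2, the paralog of Cks1b, gave 6189 ± 528 in STAT3-MER and 5406 ± 1076 in WT cells (SD, n = 3 each), with overlapping dishes.

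The other CDK inhibitors, 5 genes, had a median of -0.19. It was -0.55 without STAT3-MER replicate 2 and -0.002 without STAT3-MER replicate 1, so single dishes set its size. Cdkn2d, the p19Ink4d inhibitor of CDK4 and CDK6, gave 49.1, 212 and 77.4 in STAT3-MER dishes and 299, 196 and 187 in WT dishes, a log2 fold change of -0.98 (SE 0.44) on a dim probe set. STAT3-MER replicate 2 was the only dish of its group that reached the WT range. Cdkn1c, which encodes p57, gave 151.5, 370.5 and 142 in STAT3-MER dishes and 389, 178 and 264.5 in WT dishes. Cdkn2c, the p18Ink4c inhibitor, gave 229 ± 55.0 in STAT3-MER and 260.0 ± 19.8 in WT cells (SD, n = 3 each).

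Partners of the pocket proteins and E2F family members, 17 genes, had a median of -0.09. Tfdp1 and Tfdp2, the DP partners that E2F factors need to bind DNA, had log2 fold changes of -0.42 (SE 0.26) and -0.31 (SE 0.21). Over their 3 probe sets each, the means were -0.25 and 0.03, so the direction of Tfdp2 depended on the probe set. Rbbp4, an Rb-binding histone chaperone, gave 2655 ± 442 in STAT3-MER and 2118 ± 333 in WT cells (SD, n = 3 each).

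Cyclins and kinases that the inhibitors bind, 10 genes, had a median of -0.03. Ccnd1, cyclin D1, gave 201, 371 and 779 in STAT3-MER dishes and 461, 365 and 1217 in WT dishes, with overlapping groups. Ccnd3, cyclin D3, had a log2 fold change of 0.31 (SE 0.24) and Ccna2, cyclin A2, of -0.17 (SE 0.17). The 7 genes of the p53 and p21 inputs had a median of 0.02, which lay between -0.11 and 0.19 with single dishes left out and was -0.06 when the probe sets of each gene were averaged. Those with the smallest p were the stress-induced Sesn2 with -0.51 (SE 0.31), Gadd45a with 0.40 (SE 0.44) and the p53 target Ccng1 with 0.14 (SE 0.19).

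Other substrates of Skp2, 8 genes, had a median of 0.03. Orc1, the subunit of the origin recognition complex that SCF-Skp2 degrades in human cells, gave 1034, 966 and 1227 in STAT3-MER dishes and 642, 649 and 756.5 in WT dishes. All STAT3-MER dishes were above all WT dishes, with a log2 fold change of 0.63 (SE 0.19, limma, unadjusted p = 0.00966). Rag2, a recombinase of lymphocytes, lay at the floor with 13.2 ± 3.87 in STAT3-MER and 38.7 ± 31.8 in WT cells, and Brca2 gave 1271 ± 65.5 in STAT3-MER and 1091 ± 188 in WT cells (SD, n = 3 each).

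E2F target genes of DNA synthesis, 10 genes, had a median of 0.16, which lay between -0.05 and 0.26 with single dishes left out. Tyms, thymidylate synthase, gave 75.1, 167 and 179 in STAT3-MER dishes and 12.6, 24.5 and 17.1 in WT dishes, with a log2 fold change of 1.73 (SE 0.40, limma, unadjusted p = 0.0018). The groups were well apart, but this is a dim probe set of the r kind and the only one of the gene. Ezh2, the histone methyltransferase, gave 2679, 2829 and 3087 in STAT3-MER dishes and 2306, 2224 and 2648 in WT dishes. Its groups did not overlap, but the lowest STAT3-MER dish and the highest WT dish nearly met (limma, unadjusted p = 0.158). Dnmt1, the maintenance DNA methyltransferase, gave 2802 ± 142 in STAT3-MER and 2179 ± 418 in WT cells (SD, n = 3 each).

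**Figure D4:**
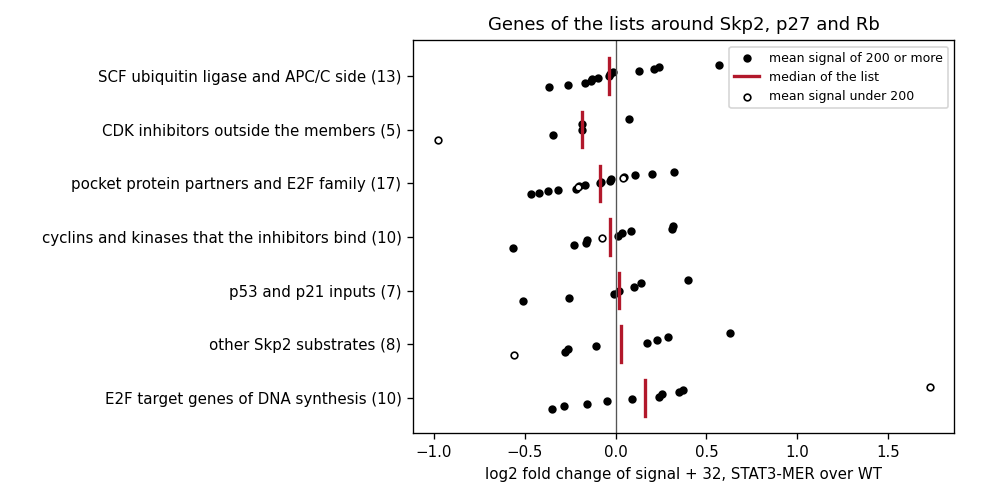
Log2 fold change of signal + 32, STAT3-MER over WT (x axis), of the measured genes of 7 lists around Skp2, p27 and Rb, 1 point per gene, open where the mean signal was under 200, with the list median in red. The medians lie between -0.19 and 0.16, and the farthest point is Tyms at 1.73.

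Among 7716 probe sets of U74Cv2 with a single gene, those whose log2 signals followed Skp2 167824_f_at most closely over the 6 arrays were Aunip (r of 0.996), Bcl2l14 (0.993), Cnksr1 (0.990), Gas7 (0.973) and Trappc11 (0.972). Aunip binds the mitotic kinase Aurora A, Bcl2l14 belongs to the Bcl2 family, and Trappc11 is part of a vesicle tethering complex. Aunip gave 939.6 ± 76.9 in STAT3-MER and 1242 ± 169 in WT cells, and Bcl2l14 313 ± 59.2 in STAT3-MER and 719 ± 253 in WT cells (SD, n = 3 each). The most opposite patterns were those of Arhgap23 (r of -0.99), Gm5106 (-0.99), Arnt2 (-0.98), Aldh1l2 (-0.98) and Ttc25 (-0.98). Of these, Arhgap23, Arnt2 and Ttc25 were dim. These correlations are a description over 6 arrays that share the difference between the groups, and 56 probe sets had an r above 0.9. With linear signals, 4 of the 5 highest stayed, and of the 5 lowest only Arhgap23 and Arnt2.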

How the data were processed

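RNA of 6 dishes was hybridized to U74Av2, U74Bv2 and U74Cv2. The deposited tables hold linear signal intensity per probe set, made by the authors with MAS5 per the labels, and each array had a trimmed mean of 499.9. Array fold changes of the study came from dChip, and it also gave a real-time PCR fold change for Skp2, lower in STAT3-MER cells. Neither was used here. Members and lists were chosen with earlier results of these data known. Signals were rescaled to one trimmed mean (2% off each end), and log2(signal + 32) was fitted per chip in limma 3.58.1 (R 4.3.3, trend), with Benjamini-Hochberg adjustment over 36701 probe sets and a threshold of 0.05. Exact tests used scipy 1.17.1. The script was tested on simulated data. With 3 dishes against 3, an exact permutation test cannot go below 0.1, and the number of arrays limits the precision. Alternatives were quantile normalization, pseudocounts of 8 and 100, no trend, a replicate block, a filter at 200, averaging the probe sets of each gene, linear signals for likeness, each dish left out, and the methods' t-test with its filter. A summed marker score was added after seeing the data. Named are all members, the 3 genes of smallest p per list, of which markers are partly given, the 5 probe sets most and least like Skp2, and Esr1 and Stat3. For lists, each gene had 1 probe set, preferring those without a suffix, then the brightest. An array without a number in its label was called STAT3-MER replicate 2, and chips were not joined by number. Symbols and promoter windows came from RefSeq GRCm38.p6, which matched 9 of 10 members with 14 windows.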

Additional observations from a re-analysis of the deposited data

How the results depend on the processing

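Under quantile normalization, other pseudocounts, no trend, the filter on dim probe sets and the replicate block, 0 members and 0 pathway genes passed. The sign of the differences of members other than Skp2 was the same in 83 of 83 values. No trend, the filter and the replicate block leave log2 fold changes unchanged by design, so only quantile normalization and the pseudocounts could change a sign. With single dishes left out, 6 of 15 probe sets other than Skp2 kept their sign. The log2 fold changes then ran from -0.66 to 0.18 (Cdkn1a 98067_at), from -0.46 to 0.12 (Cdkn1a 94881_at), from -0.049 to 0.41 (Cdkn1b 161010_r_at), from -0.33 to 0.019 (Cdkn2a), from -0.60 to 0.20 (Rb1 161858_f_at), from -0.17 to 0.39 (Rbl1), from -0.31 to 0.15 (E2f1 161427_f_at), from -0.54 to 0.00496 (E2f1 102963_at) and from -0.11 to 0.21 (Cul1 164497_r_at), and the cause was not tested. Skp2 167824_f_at ran from -0.78 to -0.50. The number of all probe sets higher was 1 to 2 (2 without WT replicate 3), and 0 were lower. The filter of the methods, which has no correction, was applied here to MAS5 signals and not to the dChip values of the study. It took 405 probe sets higher and 320 lower, with 1 member, Skp2. Its t-test alone took 2006, and 0 after Benjamini-Hochberg adjustment. With the replicate block the counts were 0 members, 1 probe set higher, 0 lower and 0 pathway genes. The block goes by number, which does not match the arrays that deviate together on U74Av2, so it does not check a pairing there. It cannot move the log2 fold changes, so those of Skp2 were again -0.60 and -0.10. Same-numbered arrays deviated together on U74Bv2 (r of 0.18, 0.211 and 0.13) and U74Cv2 (0.107, 0.132 and 0.0703), where every array was closest to its own number. On U74Av2 their r was -0.30, -0.34 and 0.287. There STAT3-MER replicate 1 was closest to WT replicate 2 (0.413) and STAT3-MER replicate 2 to WT replicate 1 (0.459). Numbers 1 and 2 thus went crosswise on the chip of the array without a number, so the numbers were not taken to pair the dishes. Whether numbers were exchanged was not tested. With the summed fibroblast signal in place of the mean log2, Cdkn1a 98067_at had an r of 0.914 (exact permutation p = 0.00556, adjusted p = 0.144), an alternative chosen after seeing the data. Signals near the floor limit what can be said of p27, Rb1 and Cdkn2a.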
